A study of Mus musculus with 2 samples.

Results

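The genes described here are 45 mouse genes of DNA replication and cell division, read through the ATAC-seq peaks at and around them. They were taken as a named list with no threshold on a measured value, though the list was drawn up with earlier results of these data known. They cover 8 kinds of protein, namely helicase loading, the replication clamp with nucleotide supply, E2F factors, cyclins with their kinases and CDC25 phosphatases, mitotic kinases with the checkpoint, chromosome passengers with centromere proteins, spindle motors, and a group of Foxm1, Mki67 and Top2a. A peak was given to a gene that it overlapped, or else to the nearest protein-coding gene within 50 kb. By that rule the 45 genes held 160 of the 84591 nuclear peaks, out of 16700 genes with a peak.

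ATAC-seq cuts open chromatin with the Tn5 transposase, so the reads in a peak measure how accessible that stretch of DNA was in the cells pooled for the library. There were 2 libraries from mouse skin epidermis, each from 50000 sorted cells with high α6 integrin, without CD34 or Lrig1, and with the YFP, GFP and RFP reporter gate of K14 tracing. The ablation library (1) carries the genotype label of basal lineage ablation, and the control library (1) the label WT. Age, strain, the agent of ablation, the days since it, and the number of animals are not stated in the labels. Each group is 1 library, so variation between animals is not known. All differences below are therefore descriptions of these libraries, and each interval is a 95% exact interval (Clopper-Pearson) of the reads that covers counting error only.

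A cell that is about to copy its DNA loads the MCM helicase onto origins with CDC6 and CDT1, then starts synthesis under cyclin E and CDK2. E2F proteins drive transcription of this replication set, whereas many genes of mitosis carry a CHR element beside CCAAT boxes and are switched on later in the cycle by the MuvB complex with B-MYB and FOXM1. Basal cells are the dividing layer of the epidermis, and promoters of cell-cycle genes are commonly open in cells whether or not they are dividing at that moment.

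The ablation library held 12463908 reads in nuclear peaks and the control library 17056996. The median peak had 62 reads in ablation and 76 in control. Mitochondrial peaks held 31.2% of all peak reads in ablation and 7.31% in control, and were left out. Values are the normalized reads deposited by the authors, where 1 read is worth 0.907 in ablation and 0.706 in control, so that 3 reads, the most that a count of 0 allows, are 2.72 in ablation and 2.12 in control. Of 7 basal keratinocyte markers, 6 had a peak at a gene end, with summed signals of 5864 in ablation and 5863 in control. They differed in direction. Krt5 had 1314 in ablation and 1130 in control, Krt14 2645 in ablation and 2584 in control, and Krt15 327 in ablation and 295 in control. Itga6, the gene of the α6 integrin, had 471 in ablation and 618 in control. Itgb4 had 910 in ablation and 999 in control, and Col17a1 198 in ablation and 236 in control. Trp63, which the rule placed with 35 peaks, had none at its ends. Gene-end signal was low for T cell markers (24.5 in ablation and 19.8 in control, 1 of 3 with a peak) and for Langerhans and myeloid markers (17.2 in ablation and 8.47 in control, 1 of 5). It was 190 in ablation and 280 in control for endothelial markers (2 of 5), 216 in ablation and 238 in control for fibroblast markers (2 of 5), and 1669 in ablation and 2018 in control for melanocyte markers (3 of 5). Most of the melanocyte sum came from Pmel, with 1124 in ablation and 1338 in control. Mitf had 387 in ablation and 479 in control, and Dct 158 in ablation and 200 in control. Tyr and Tyrp1 had no gene-end peak. Nearer cell types also had open gene ends, with 1122 in ablation and 1046 in control for suprabasal keratinocyte markers (4 of 5). Bulge markers (3 of 3) summed to 228 in both libraries but differed in direction. Cd34, against which the cells were sorted, had 34.5 in ablation and 8.47 in control. Lgr5 had 31.7 in ablation and 21.2 in control, and Lhx2 161 in ablation and 198 in control. Lrig1, against which the cells were also sorted, had 553 in ablation and 637 in control. The part of these other cells in the results below was not tested.

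Of the 45 genes, 37 had an entry among RefSeq promoters (GRCm38.p6, the assembly behind mm10), 40 promoters in all, each from 250 bases before to 50 bases after the gene start. Mcm4, Ccne2, Ccna2, Cdc25c, Aurkb, Kif20a, Tpx2 and Foxm1 were not matched. The letters searched, on both strands, were CCAAT for the CCAAT box, TTTGAA for the CHR, GGGCGG for the GC box, and TTTGGCGC, TTTCGCGC, TTCCCGCC and TTCGCGCC for E2F sites. Matches of the same motif or of different motifs may overlap, and each is counted. The promoters shown are, for each of the 8 groups, that of the gene with the highest gene-end signal among those with an entry, plus that of Tyms, which had the highest ratio of ablation to control. Ccne1, shown on that ground, is also the gene with the lowest ratio. Sequences run 5′ to 3′ on the gene's strand, and capitals mark CCAAT boxes, CHR letters and E2F letters, but not GC boxes.
Mcm7 (chr5:138171834-138172133, minus strand): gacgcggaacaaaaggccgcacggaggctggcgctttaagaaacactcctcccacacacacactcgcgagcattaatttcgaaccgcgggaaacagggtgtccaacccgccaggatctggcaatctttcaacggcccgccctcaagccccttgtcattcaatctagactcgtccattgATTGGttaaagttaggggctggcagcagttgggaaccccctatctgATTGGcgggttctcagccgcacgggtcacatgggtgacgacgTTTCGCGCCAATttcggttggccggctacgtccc
Pcna (chr2:132253131-132253430, minus strand): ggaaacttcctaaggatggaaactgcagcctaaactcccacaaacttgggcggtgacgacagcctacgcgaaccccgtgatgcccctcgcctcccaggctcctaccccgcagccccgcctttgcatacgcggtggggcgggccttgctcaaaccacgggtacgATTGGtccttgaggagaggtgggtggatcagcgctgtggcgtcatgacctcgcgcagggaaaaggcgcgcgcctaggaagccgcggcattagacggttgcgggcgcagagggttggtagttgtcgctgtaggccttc
Tyms (chr5:30073576-30073875, minus strand): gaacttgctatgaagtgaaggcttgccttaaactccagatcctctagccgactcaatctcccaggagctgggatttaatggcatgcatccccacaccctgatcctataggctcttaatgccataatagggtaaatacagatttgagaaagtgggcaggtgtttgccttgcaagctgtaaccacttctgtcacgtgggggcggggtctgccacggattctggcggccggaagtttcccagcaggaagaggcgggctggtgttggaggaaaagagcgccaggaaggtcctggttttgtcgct
E2f3 (chr13:29986014-29986313, minus strand): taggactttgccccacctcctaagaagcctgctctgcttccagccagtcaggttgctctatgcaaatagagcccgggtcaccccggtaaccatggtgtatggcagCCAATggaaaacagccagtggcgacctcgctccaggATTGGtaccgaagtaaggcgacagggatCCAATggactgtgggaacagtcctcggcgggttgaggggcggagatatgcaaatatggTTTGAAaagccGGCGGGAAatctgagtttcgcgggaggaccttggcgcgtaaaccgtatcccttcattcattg
Ccne1 (chr7:38107441-38107740, minus strand): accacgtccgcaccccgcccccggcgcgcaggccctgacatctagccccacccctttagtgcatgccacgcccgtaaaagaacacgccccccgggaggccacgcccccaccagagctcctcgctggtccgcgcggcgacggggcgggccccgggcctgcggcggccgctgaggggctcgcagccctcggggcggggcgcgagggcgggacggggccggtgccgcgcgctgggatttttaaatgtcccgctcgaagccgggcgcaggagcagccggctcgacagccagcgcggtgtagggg
Aurka (chr2:172370521-172370820, minus strand): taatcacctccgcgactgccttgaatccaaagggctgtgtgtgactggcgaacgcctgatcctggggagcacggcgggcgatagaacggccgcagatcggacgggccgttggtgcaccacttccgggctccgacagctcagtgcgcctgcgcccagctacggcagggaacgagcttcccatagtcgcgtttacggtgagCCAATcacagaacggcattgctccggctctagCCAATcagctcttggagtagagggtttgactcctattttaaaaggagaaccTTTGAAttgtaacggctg
Mki67 (chr7:135716330-135716629, minus strand): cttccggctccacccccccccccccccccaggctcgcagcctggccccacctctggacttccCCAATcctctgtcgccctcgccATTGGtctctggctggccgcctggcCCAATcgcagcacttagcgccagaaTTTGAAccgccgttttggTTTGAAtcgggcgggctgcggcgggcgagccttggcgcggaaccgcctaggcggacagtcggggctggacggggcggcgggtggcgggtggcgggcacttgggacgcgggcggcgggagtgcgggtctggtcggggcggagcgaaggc
Cenpf (chr1:189688037-189688336, minus strand): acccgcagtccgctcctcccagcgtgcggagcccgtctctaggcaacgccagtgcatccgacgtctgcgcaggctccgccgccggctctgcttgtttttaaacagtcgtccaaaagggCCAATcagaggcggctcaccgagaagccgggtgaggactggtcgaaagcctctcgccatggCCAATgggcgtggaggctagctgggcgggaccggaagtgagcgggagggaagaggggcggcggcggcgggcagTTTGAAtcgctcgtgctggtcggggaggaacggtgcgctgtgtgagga
Kif11 (chr19:37376132-37376431, plus strand): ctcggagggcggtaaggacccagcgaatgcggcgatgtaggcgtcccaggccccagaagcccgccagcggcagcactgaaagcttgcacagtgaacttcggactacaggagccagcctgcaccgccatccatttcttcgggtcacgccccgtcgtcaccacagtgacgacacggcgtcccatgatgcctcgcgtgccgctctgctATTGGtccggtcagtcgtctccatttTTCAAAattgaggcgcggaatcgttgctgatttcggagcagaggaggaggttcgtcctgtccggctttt

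Aurka and Cenpf each show 2 CCAAT boxes upstream of a CHR near the gene start. Mki67 shows 3 CCAAT boxes and 2 CHR copies. In Mcm7 the 2 E2F matches overlap each other and a CCAAT box, and E2f3 carries a CHR and an E2F match close together. Neither the lowest promoter by ratio, Ccne1, nor the highest, Tyms, held any of the 3 capitalised motifs, and both held GC boxes, 4 in Ccne1 and 1 in Tyms.

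These letters were more frequent in promoters of the 45 genes than in promoters at large. A CCAAT box was found in 32 of the 40 (80%), against 38.0% of the 12029 promoters of protein-coding genes whose start lay in a tested peak. The CHR was found in 16 (40%), against 10.7%, and all 16 also held a CCAAT box, a combination found in 4.54% of the 12029. E2F letters were found in 10 (25%), against 6.55%, and a GC box in 34 (85%), against 69.4%. Among all 21262 protein-coding promoters the shares were 38.2% for the CCAAT box, 15.99% for the CHR, 4.30% for E2F letters and 46.2% for the GC box.

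**Figure D1:**
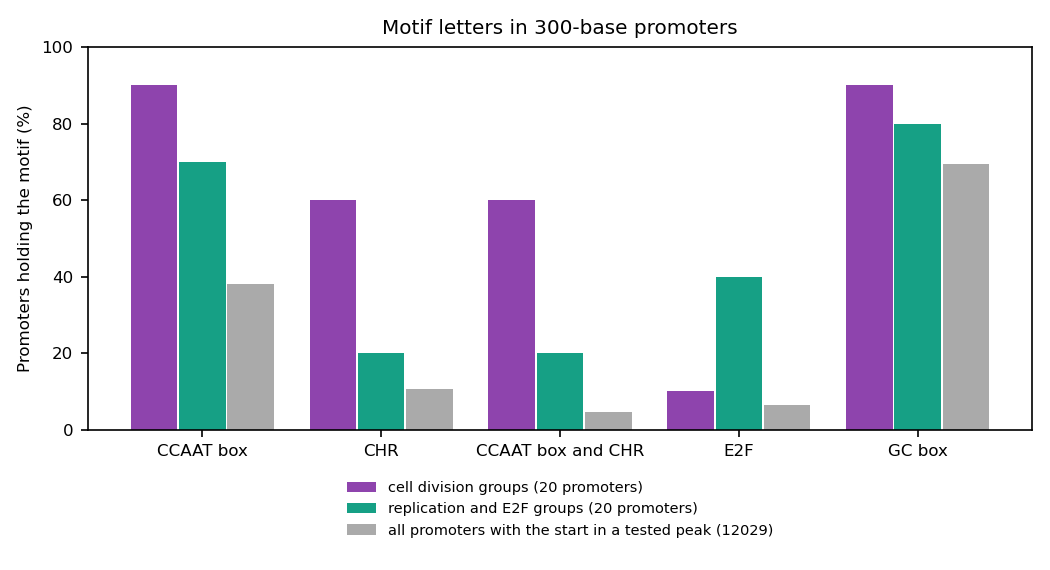
Share of 300-base promoters (percent, vertical axis) that hold each motif, for the cell division groups (20 promoters), the replication and E2F groups (20), and all 12029 promoters whose start lies in a tested peak. The CHR was found in 12 of 20 division promoters and the E2F letters in 8 of 20 replication and E2F promoters.

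By function the counts were as follows. Of the 20 promoters of division genes, 18 held a CCAAT box, 12 a CHR and 2 E2F letters (Cdc25a and Cdk1). Of the 20 promoters of replication and E2F genes, 14 held a CCAAT box, 4 a CHR and 8 E2F letters. In the 250 bases before the start alone, the CHR was found in 6 division promoters and 4 replication and E2F promoters, and E2F letters in 2 and 4, so the contrast between the groups rests largely on the 50 bases after the start. In those 250 bases 9.36% of the 12029 promoters held a CHR and 5.57% E2F letters. The difference between the groups was not tested. The 8 include Mcm3, Mcm5, Mcm6 and Mcm7, which encode subunits of the replicative helicase, with 2, 3, 5 and 2 matches. These are not all separate sites, since matches overlapped. Those of Mcm5 were centred at −149, −148 and −145 bases from the start, and those of Mcm6 at −106, −103, −102, −43 and −40. The CHR sat close to the gene start. Of its 20 copies 14 (70%) had their centre within 50 bases of the start, against 25.5% of the copies in the 12029 promoters, and the median centre was −16.5 bases from the start, against −134. Median GC content was 57.8% for the 40 promoters and 62.3% for the 12029.

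All 45 genes had a tested peak at a gene end, defined as within 1 kb of either end, and 39 of the 40 promoters (97.5%) had their start inside a tested peak, against 56.6% of the 21262. A peak was tested where its mean over both libraries reached 13.96 normalized reads, the 10th percentile. All 52 gene-end peaks and 89 of the 108 other peaks passed. The 19 that did not came from 14 genes and held 7 to 24 reads in ablation and 5 to 27 in control. The gene-end peaks had a median of 325 normalized reads per kb in ablation and 328 in control, against 231 in ablation and 240 in control for all 14666 tested gene-end peaks. Ranked per kb among those 14666, the strongest gene-end peak of each gene lay between the 19.3 and the 99.0 percentile, with a median of 70.8, and 36 of 45 lay above the 50th.

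Accessibility at the ends of these genes was nearly equal in the libraries, as at gene ends in general. None of the 52 gene-end peaks was at least 2-fold higher in ablation and 1 (1.92%) was at least 2-fold lower, on the log2 scale with a pseudocount of 1. Over all tested gene-end peaks 1.64% were higher and 0.334% lower by that measure. Within 1.5-fold lay 96.2% of the genes' gene-end peaks, against 91.9% of all. Their median log2 ratio of ablation to control was −0.14, against −0.07 over all gene-end peaks, and 15 of 52 (28.8%) were above 0, against 40.0%. Summed over the 52 peaks, signal in ablation was 0.914 of that in control (0.898 to 0.931), and over all gene-end peaks it was 0.918. The genes' median was −0.05 with nuclear totals, −0.48 with whole-table totals and −0.0026 with a correction for signal strength. That of all gene-end peaks was 0.02, −0.41 and 0.03 under the same settings. Both totals shift all peaks alike, so they cannot change how the genes stand against all gene-end peaks. The correction for signal strength can, and left the genes' median near 0. In bulk chromatin, fewer cells with an open site and less opening per cell cannot be told apart.

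**Figure D2:**
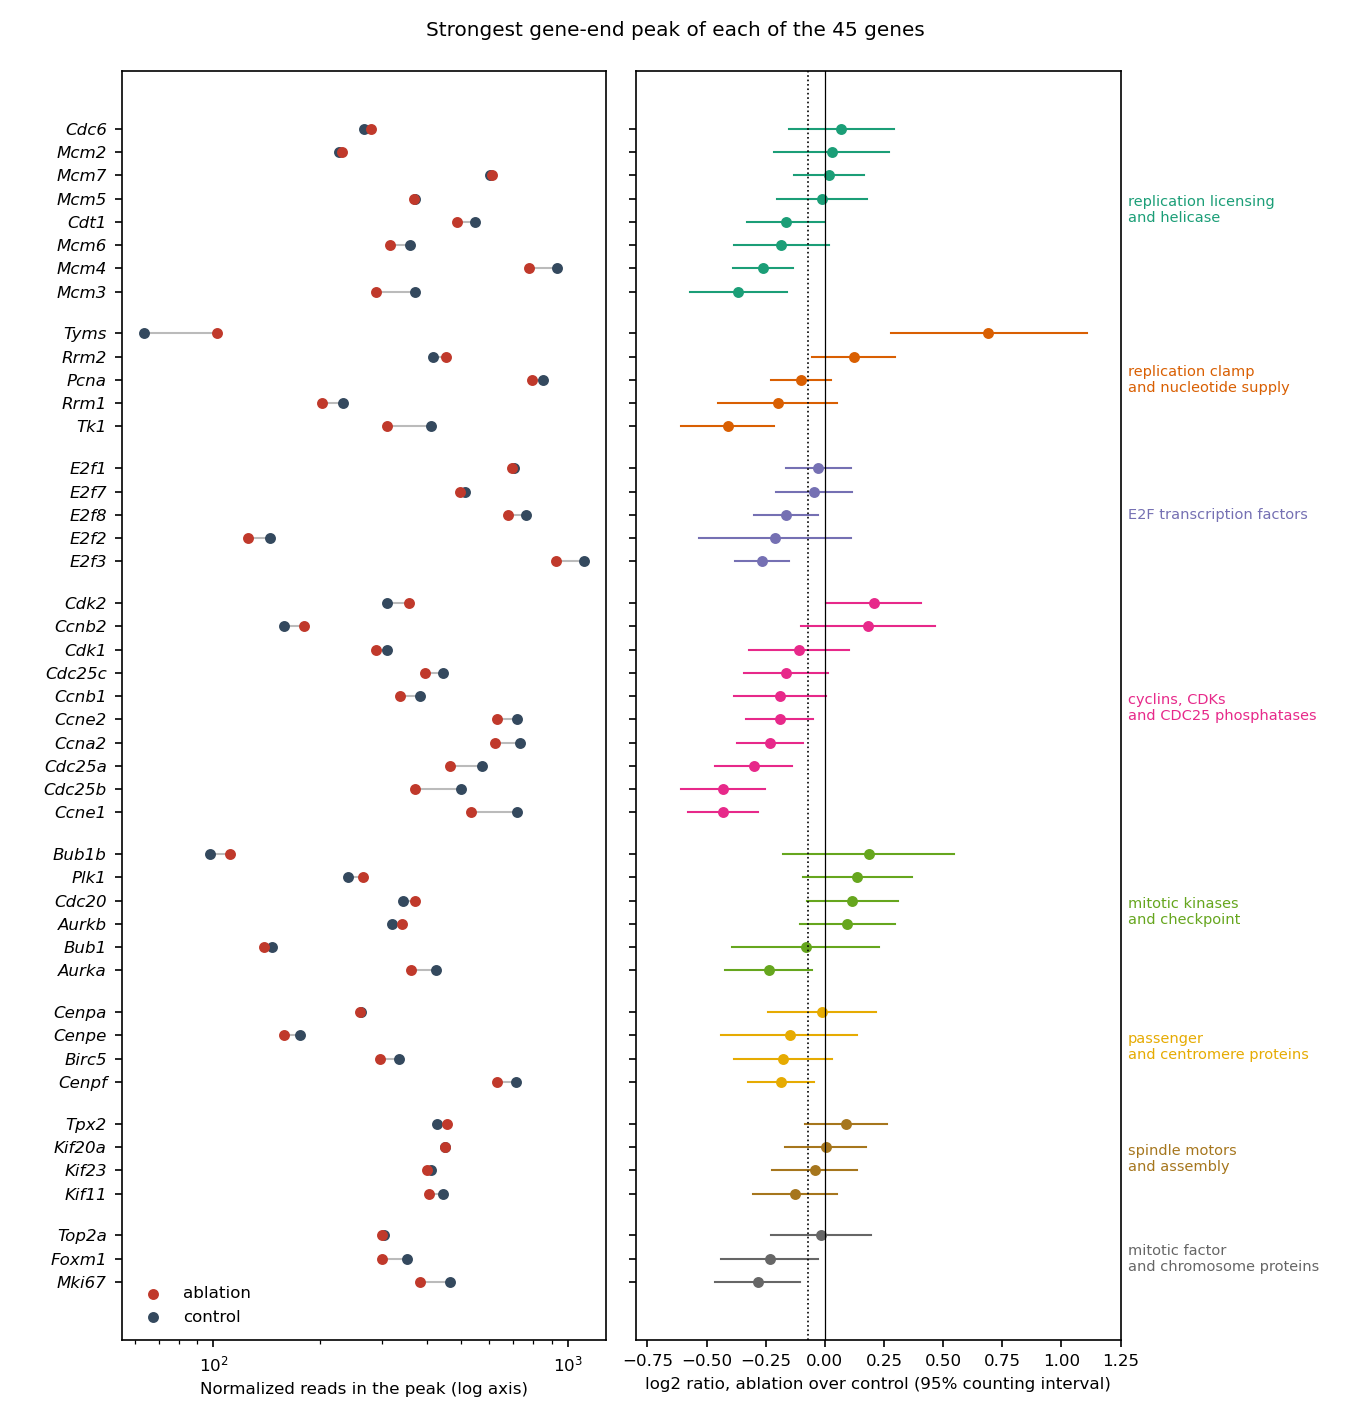
Strongest gene-end peak of each of the 45 genes, by function: signal (normalized reads, log axis) in ablation and control at left, and the log2 of their fold with its 95% counting interval at right. The dotted line is the median of all tested gene-end peaks, −0.07, and Tyms lies farthest to the right.

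One value per gene, that of its strongest gene-end peak, gave a median log2 ratio of −0.12, with 13 of 45 above 0. The counting interval lay below a fold of 1 for 15 genes, above it for 2 (Tyms and Cdk2), and held 1 for 28. Over all tested gene-end peaks the interval lay below 1 for 25.7% and above it for 10.5%, and over the genes' 52 gene-end peaks for 30.8% and 5.77%. For 8 of the 45 the strongest peak also lay within 1 kb of an end of another protein-coding gene, and that of Cdk2 overlapped another gene away from its ends. Reads of such peaks cannot be divided between the genes. The sign of small differences rests on the scaling, and so does whether an interval with a bound near 1 holds it. Nuclear totals multiply each fold and its bounds by 1.06, and whole-table totals by 0.790. The intervals given here for each gene are those of the deposited values. Dividing each library by its total over nuclear peaks put 20 of 45 above 0 (all gene-end peaks 53.3%), and dividing by the total over the whole table, mitochondria included, put only Tyms above 0 (all gene-end peaks 13.3%).

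Among the genes that load and form the helicase, the median was −0.09 and 3 of 8 were above 0, and with nuclear totals the median was 0.0017 and 4 of 8 were. Mcm4, a helicase subunit gene whose peak at chr16:15637013-15638074 also lies at the end of Prkdc, had the highest signal per kb of the 8, 733 in ablation and 879 in control, with 778 normalized reads in ablation and 932 in control in the peak (fold 0.835, 0.765 to 0.910). Mcm6 had the lowest per kb, 220 in ablation and 250 in control. Mcm3, another subunit, was the lowest by ratio, with 288 normalized reads in ablation and 370.5 in control (fold 0.776, 0.673 to 0.894). Cdc6, the loader, was the highest, with 278 in ablation and 265 in control, and its interval held 1 (1.05, 0.900 to 1.22). Cdt1 had 487 in ablation and 546 in control (0.892, 0.797 to 0.997). Mcm7, Mcm2 and Mcm5 differed by less than counting error, with folds of 1.01 (0.913 to 1.12), 1.02 (0.862 to 1.21) and 0.992 (0.869 to 1.13), and the interval of Mcm6 also held 1 (0.880, 0.766 to 1.01).

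Pcna, the sliding clamp that holds DNA polymerase on its template, had 823 normalized reads per kb in ablation and 884 in control, the highest of its group, from a peak shared with the end of Cds2 (fold 0.932, 0.853 to 1.02). Tyms, which makes thymidylate, was at the other end of the scale. Its gene-start peak at chr5:30072975-30073841 held 102 normalized reads in ablation and 63.5 in control, the highest ratio of the 45 (fold 1.61, 1.21 to 2.15) and the lowest level per kb, 118 in ablation and 73.3 in control. Tk1, the salvage enzyme for thymidine, differed the other way, with 309 in ablation and 411 in control (0.753, 0.657 to 0.862), in a peak shared with Afmid. Ribonucleotide reductase makes the deoxynucleotides themselves. Its large subunit gene Rrm1 had 202 in ablation and 232 in control (0.871, 0.732 to 1.04), and its small subunit gene Rrm2 453 in ablation and 416 in control (1.09, 0.965 to 1.23), so that both intervals held 1. The group's median was −0.10 with 2 of 5 above 0.

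All 5 E2F genes had a lower strongest gene-end peak in ablation as deposited, with a median log2 ratio of −0.16. With nuclear totals 2 of 5 were above 0 and the median was −0.07. E2f3, an activator, had the most accessible gene end per kb of all 45 genes, 1016 in ablation and 1222 in control, and 927 normalized reads in ablation and 1114 in control in the peak (fold 0.832, 0.768 to 0.901). A downstream start of E2f3 had 263 in ablation and 227 in control (1.16, 0.984 to 1.36). E2f1 and E2f7, an activator and an atypical repressor, were within counting error. E2f1 had 694 in ablation and 707 in control (0.981, 0.892 to 1.08), and E2f7 498 in ablation and 514 in control (0.969, 0.866 to 1.08). E2f8, the other atypical repressor, had 680 in ablation and 761 in control (0.893, 0.813 to 0.982). E2f2 was the weakest of the family, with 125 in ablation and 145 in control near its upstream start (0.865, 0.692 to 1.08). Its internal start was far stronger and nearly level, with 689 in ablation and 721 in control (0.956, 0.869 to 1.05).

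The cyclins, CDKs and CDC25 phosphatases had a median of −0.19, and 8 of 10 were below 0. Ccne1, which encodes cyclin E1 of the G1 to S transition, had the lowest ratio of the 45 genes, with 533 normalized reads in ablation and 718 in control at chr7:38107295-38108237 (fold 0.742, 0.670 to 0.823). Cdc25b, a phosphatase that activates CDK1, was almost as low, with 370 in ablation and 498 in control (0.743, 0.656 to 0.840). Ccne1 was also the most accessible per kb of its group, 566 in ablation and 763 in control, and Ccnb2, a mitotic cyclin gene, the least, 219 in ablation and 193 in control. Intervals also lay below 1 for Cdc25a (0.812, 0.726 to 0.908), Ccna2 (0.852, 0.773 to 0.939, in a peak shared with Bbs7) and Ccne2 (0.876, 0.794 to 0.965). Cdk2, the kinase partner of cyclin E, lay on the other side, with 357 in ablation and 310 in control (1.15, 1.00 to 1.32), in a peak that also overlaps Pmel. Cdk1, the mitotic kinase, had 288 in ablation and 310 in control and its interval held 1 (0.928, 0.801 to 1.07), as did those of Ccnb2 (1.14, 0.934 to 1.38) and of Cdc25c, another activator of CDK1 (0.893, 0.789 to 1.01).

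By strongest gene-end peak, the mitotic kinases and checkpoint genes were the only group with a median above 0 as deposited. That median was 0.11, with 4 of 6 genes above 0, and with whole-table totals it was −0.23. Summed over the group's 8 gene-end peaks, signal was level, with ablation 1.00 of control (0.940 to 1.06). Bub1b, a checkpoint kinase gene, had 112 in ablation and 98.1 in control (fold 1.14, 0.885 to 1.46). Its 3 gene-end peaks together gave a fold of 0.986 (0.819 to 1.19). Cdc20, the activator of the anaphase-promoting complex, had the highest level per kb of the group, 507 in ablation and 468 in control, and Bub1 the lowest, 130 in ablation and 138 in control. Aurka had the lowest ratio. This kinase gene of the spindle poles had 361 in ablation and 426 in control (0.848, 0.746 to 0.964), in a peak shared with Cstf1. The intervals of the other kinase genes Plk1 (1.10, 0.937 to 1.29), Aurkb (1.07, 0.929 to 1.23) and Bub1 (0.945, 0.762 to 1.17), and of Cdc20 (1.08, 0.948 to 1.24), held 1.

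Foxm1, the transcription factor of late cell-cycle genes, had 299 normalized reads in ablation and 351 in control (fold 0.852, 0.739 to 0.981), in a peak shared with Rhno1. Mki67, the source of the Ki-67 proliferation antigen, had 382 in ablation and 464 in control at its start (0.822, 0.726 to 0.931). Top2a, which untangles chromosomes before they separate, had 299 in ablation and 303 in control (0.989, 0.854 to 1.14). The group's median was −0.23 over 3 genes, and 0 of 3 were above 0 (1 with nuclear totals).

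Of the passenger and centromere genes, 0 of 4 were above 0 as deposited and 1 with nuclear totals, with a median of −0.16. Cenpf, whose protein gathers at kinetochores, had the highest level per kb, 952 in ablation and 1082 in control, and the lowest ratio, with 630 in ablation and 716 in control in the peak (fold 0.880, 0.798 to 0.970). Cenpe, a kinetochore motor, had the lowest level per kb, 108 in ablation and 119.5 in control, and a fold of 0.902 (0.739 to 1.10). Cenpa, the centromeric histone H3 variant, had 258 in ablation and 260 in control (0.993, 0.848 to 1.16), and Birc5, which encodes survivin, 296 in ablation and 334 in control (0.884, 0.765 to 1.02).

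The spindle genes had a median of −0.02 (0.07 with nuclear totals) and a summed gene-end signal in ablation 1.01 of that in control. Tpx2, which targets Aurora A to the spindle, had the highest ratio, with 456 in ablation and 428 in control (fold 1.07, 0.944 to 1.20). Kif11, the kinesin that pushes spindle poles apart, had the lowest, with 406 in ablation and 443 in control (0.917, 0.810 to 1.04). Kif20a, a kinesin gene of cytokinesis whose peak is shared with Brd8, had 451 in ablation and 450 in control (1.00, 0.890 to 1.13). Kif23, which acts in cytokinesis too, had the lowest level per kb of the group, 357 in ablation and 368 in control, and a weaker gene-end peak with 146 in ablation and 112 in control (1.30, 1.04 to 1.63). For all 4 genes the interval of the strongest peak held 1.

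**Figure D3:**
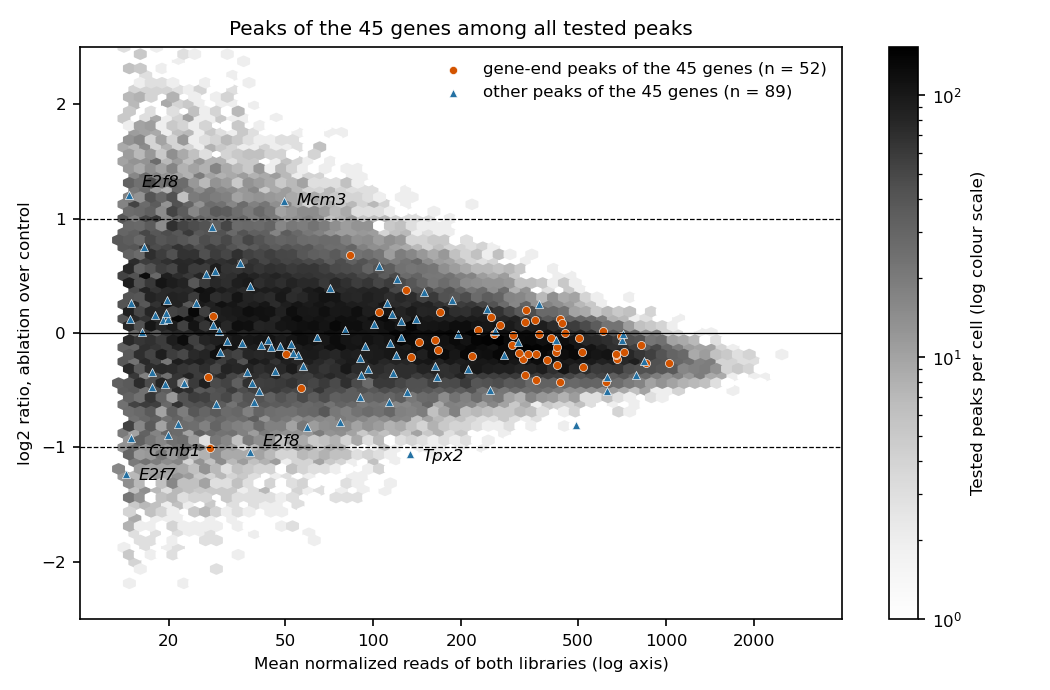
Log2 ratio of ablation to control (vertical) against mean signal (normalized reads, log axis) for the tested peaks of the 45 genes, over the density of all 76147 tested peaks. The 6 labelled peaks are those past 2-fold, and 5 of them lie away from gene ends.

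Away from gene ends, 24 of the genes had 89 tested peaks. Of these 2 (2.25%) were at least 2-fold higher and 3 (3.37%) at least 2-fold lower, against 5.16% and 2.25% of all 61481 such peaks. Together with gene ends, 2 of 141 were higher and 4 lower, against 4.48% and 1.88% of all 76147 tested peaks. At 1.5-fold, 6 of the 141 were higher and 13 lower, against 13% and 7.47% of all. Of these, 1 and 1 were at gene ends, against 6.01% and 2.12% of all gene-end peaks, and 5 and 12 elsewhere, against 14.7% and 8.75%. The median of the 89 was −0.10, against 0.01 for all such peaks, and 33 of 89 (37.1%) were above 0, against 50.8%. Centring the libraries on strong gene-end peaks moved the median of the 89 to 0.00069, and that of all such peaks to 0.11. Summed signal in ablation was 0.884 of that in control (0.864 to 0.904), against 0.951 for all other peaks. The rows of the deposited table were not alike in direction. The table falls into 3 runs of rows, each in its own name order and with no stated meaning, and all tested peaks first listed in them had medians of 0.71, −0.44 and −0.03. Of the genes' 160 peaks, 14 (8.75%), 18 (11.25%) and 128 (80%) were first listed in these runs, against 11.6%, 9.55% and 78.8% of all.

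Of the 6 peaks past 2-fold, 4 lay outside their genes. Near Mcm3, a peak at chr1:20847951-20848491 and 27639 bp from the gene held 68.9 normalized reads in ablation and 30.3 in control (fold 2.27, 1.54 to 3.38). Inside Tpx2, a peak at chr2:152880980-152881727 held 86.2 in ablation and 181 in control (0.477, 0.373 to 0.606). This was the strongest of the 6. At the far end of Ccnb1, which encodes cyclin B1, a peak at chr13:100778591-100779048 held 18.1 in ablation and 37.4 in control (0.485, 0.275 to 0.825), while the Ccnb1 start had 336 in ablation and 383 in control (0.878, 0.767 to 1.00).

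E2f8 had one peak past 2-fold in each direction. At chr7:48897767-48898054, 15694 bp from the gene, there were 20.9 normalized reads in ablation and 8.47 in control (2.46, 1.18 to 5.43). At chr7:48913759-48914237, 31686 bp from it, there were 24.5 in ablation and 51.5 in control (0.475, 0.294 to 0.748). Near E2f7 a peak at chr10:110728678-110728836, 16603 bp away, held 8.16 in ablation and 20.5 in control (0.399, 0.166 to 0.866). The higher E2f8 peak rested on 23 reads in ablation and 12 in control, and the E2f7 peak on 9 in ablation and 29 in control. That E2f8 peak was first listed in run 1 of the rows, where 90.8% of all tested peaks were above 0. The E2f7 peak was first listed in run 2, where 18.4% were. Each thus had the direction of most peaks in its run. Neither peak passed a filter at the 25th percentile, and neither was in the largest run. With a pseudocount of 5 in place of 1, which damps ratios of weak peaks, the Mcm3 peak stayed past 2-fold higher and the Tpx2 peak past 2-fold lower, and the other 4 did not stay past it.

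The strongest peaks away from gene ends belonged to Ccne1, Rrm2 and Mki67. A peak at chr7:38084563-38086175, 11809 bp from Ccne1, held 769 normalized reads in ablation and 912 in control (fold 0.843, 0.772 to 0.920), and one at chr12:24734580-24735547, 20434 bp from Rrm2, held 688 in ablation and 887 in control (0.776, 0.708 to 0.850). The one at chr7:135734600-135736559, 18150 bp from Mki67, was level, with 713 in ablation and 718 in control (0.993, 0.904 to 1.09).

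**Figure D4:**
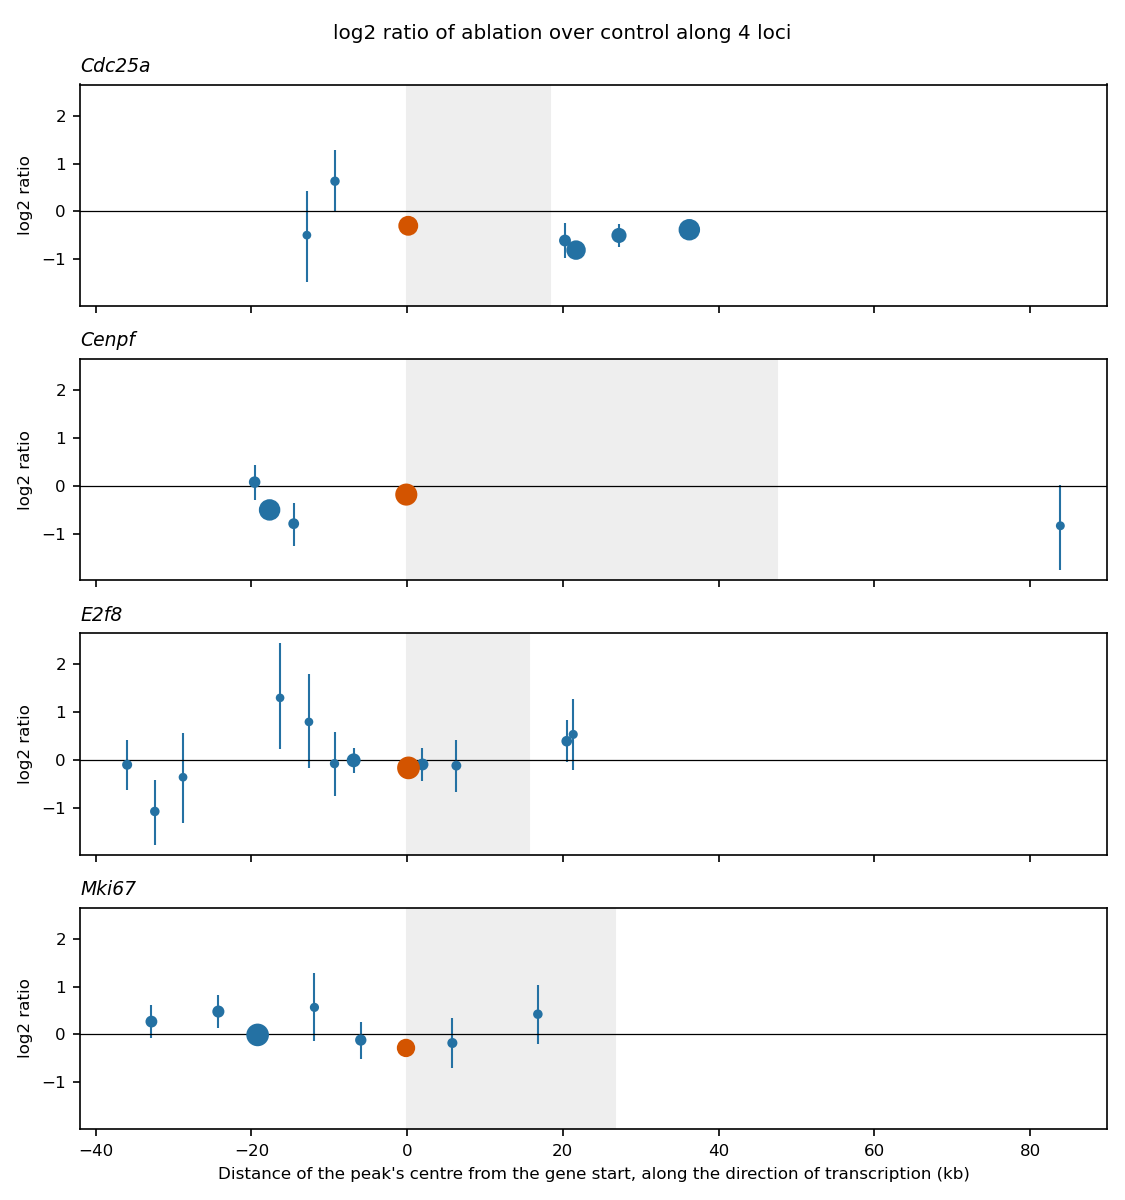
Log2 of the fold of ablation over control, with 95% counting intervals, for each tested peak of Cdc25a, Cenpf, E2f8 and Mki67 by distance from the gene start (kb), with gene-end peaks in orange, other peaks in blue, the gene in grey and point area rising with signal. At Cdc25a 6 of 7 peaks lie below 0, and at Mki67 4 of 8. Of all tested peaks 48.7% lie above 0.

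Cdc25a, the phosphatase that activates CDK2 at the start of S phase, was singled out after its values were seen, since 6 of its 7 tested peaks were lower in ablation and 5 had an interval below 1. Over all tested peaks 48.7% were above 0. The interval lay below 1 for 25.7% of all gene-end peaks and for 16.4% of all other peaks. The lowest ratio among the Cdc25a peaks lay at chr9:109896663-109897877, 2768 bp beyond the gene. The downstream peaks held 358 normalized reads in ablation and 627 in control (fold 0.571, 0.506 to 0.644), 546 in ablation and 712 in control (0.767, 0.692 to 0.849), 207 in ablation and 293 in control (0.706, 0.598 to 0.832), and 89.8 in ablation and 137 in control (0.656, 0.510 to 0.840). Its start had 465 in ablation and 573 in control. Cenpf, chosen in the same way, had upstream peaks with 520 in ablation and 737 in control (0.705, 0.635 to 0.781), 56.2 in ablation and 97.4 in control (0.577, 0.421 to 0.785), and 103 in ablation and 98.1 in control (1.05). The peak with 56.2 in ablation was first listed in the second run of rows, where 18.4% of all tested peaks were above 0. At Mki67 the 8 tested peaks were divided, 4 below 0 and 4 above. The peaks at Rrm2 also differed among themselves, since beside the lower one above another held 402 in ablation and 337 in control (1.19, 1.04 to 1.36).

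The gene-end ratio was set beside the promoter motifs as a description. The 10 genes with E2F letters had a median log2 ratio of −0.19 and the 27 without −0.04. Only exact letters were searched, so a gene without a match may still hold a variant of the site. E2f2 entered with the peak near its upstream start, which covers neither of its starts. The 16 genes with a CHR had a median of −0.08 and the 21 without −0.15. For the CCAAT box the medians were −0.10 with (30 genes) and −0.16 without (7). For the GC box they were −0.12 with (32) and −0.01 without (5). The ranges overlapped in each case, from −0.36 to 0.02 with E2F letters and from −0.43 to 0.68 without.

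A wider list of 127 other cell-cycle genes, of which 126 had a tested peak, was near the 45 genes at gene ends and less so elsewhere. Of its 133 gene-end peaks 0 were past 2-fold in either direction (1.64% higher and 0.334% lower over all), and their median was −0.11, with 29.3% above 0 and a summed fold of 0.893 (0.884 to 0.903). Of its 206 other peaks 47.1% were above 0, and their summed fold was 0.965 (0.949 to 0.982), against 0.884 for the 45 genes and 0.951 over all other peaks. Of its 339 tested peaks 3 (0.885%) were higher and 10 (2.95%) lower, against 4.48% and 1.88% of all tested peaks, and the median was −0.08. All 13 lay away from gene ends. Those higher lay near Chaf1b, a chromatin assembly subunit gene (74.4 in ablation and 36.0 in control), Ckap2l (49.9 in ablation and 14.8 in control) and the repressor gene E2f6 (28.1 in ablation and 4.94 in control). Those lower included a pair each at Espl1, the gene of separase (36.3 in ablation and 78.3 in control, and 26.3 in ablation and 60.0 in control), at Prc1, a midzone protein gene (28.1 in ablation and 69.9 in control, and 22.7 in ablation and 50.1 in control), and at Kif4 (9.07 in ablation and 28.2 in control, and 6.35 in ablation and 24.0 in control). The others were at Racgap1 (14.5 in ablation and 42.3 in control), Cdc7 (12.7 in ablation and 29.6 in control), Ncapd3 (15.4 in ablation and 32.5 in control) and Nek2 (9.07 in ablation and 24.7 in control).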

How the data were processed

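Chromatin accessibility was measured by ATAC-seq in sorted mouse basal cells, in 1 ablation and 1 control library. The submitters' processing notes name build mm10, MACS2 2.1.0.20151222, Bowtie2 2.3.4.2, HTSeq, Picard and Trimmomatic, without what each did. The deposited table gives a signal for every peak and library, normalized by the authors. All values (100%) were whole multiples of 1 step within 0.1 of a read, so whole reads were recovered, and the method behind the factors is not stated. Whether starts count from 0 or 1 is not stated either. Columns were matched by name, although the control column is numbered 2 where the title has 1, and the ablation column is called Exp. The number of per-sample columns not used was 0.

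The 116411 rows held 84594 distinct peaks, of which 3 mitochondrial ones were left out. Log2 ratios of ablation to control used a pseudocount of 1 on the 76147 peaks whose mean reached the 10th percentile (13.96). Peaks went to protein-coding genes of a RefSeq table of GRCm38.p6 that they overlap, or to the nearest within 50 kb, and were gene-end peaks within 1 kb of either end. The criterion was a size of 2-fold, with no test. Reads gave 95% intervals by the exact Clopper-Pearson method, and PCR copies are not independent molecules. By group, the text names the genes with the highest and lowest ratio and the highest and lowest level per kb, all peaks past 2-fold, the 3 strongest other peaks and all 5 E2F genes. The members and lists were chosen with earlier results of these data known. Alternatives changed the scaling, filter, pseudocount, fold, gene window and promoter window. The steps were tested on simulated data. Scripts used Python 3.11.15 with pandas 2.3.3, matplotlib 3.10.9, numpy 2.4.6, statsmodels 0.14.6 and scipy 1.17.1.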

Additional observations from a re-analysis of the deposited data

Results flagged for a closer look

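Mitochondrial peaks, which no comparison above used, held 31.2% of all peak reads in the ablation library and 7.31% in the control library. With 1 library per group this difference has no replicate check. Dividing by totals that include these reads shifted the median of all tested peaks by −0.33 on the log2 scale. Their part in the lower values at the genes described was not tested.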

How the results depend on the processing

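Since each group is 1 library, neither variation between animals nor leaving out a replicate could be examined, and weak peaks limit the counts past 2-fold. No paired analysis was possible because the groups share only replicate number 1, with 1 library each. As reported, 2 of 141 peaks were higher and 4 lower, against 4.48% and 1.88% of all tested peaks. At 1.5-fold 6 and 13 were (all peaks 13% and 7.47%), with a pseudocount of 5, 1 and 1 (2.91% and 1.13%), and with whole-table totals 0 and 10 (1.76% and 5.56%). With overlapping peaks alone 0 of 81 were higher and 2 lower, and with a limit of 5 kb 0 of 95 were higher and 2 lower. The share over all peaks limited in the same way was not computed, so these counts have no background beside them. Without the filter 7 of 160 were higher (6.14%), with a filter at the 25th percentile 1 of 123 (2.81%), and in the largest run of rows 1 of 128 (2.44%). With nuclear totals 1 was lower (1.45%), as with centring on strong gene-end peaks (1.39%). The median log2 ratios of gene-end and other peaks were −0.046 and −0.0067 with nuclear totals, −0.48 and −0.43 with whole-table totals, −0.040 and 0.00069 with centring, where the median of other peaks changed sign, and −0.0026 and −0.17 with a loess correction for signal strength. Log2 ratios of summed signal were −0.038 and −0.088, −0.47 and −0.52, and −0.033 and −0.082 under the same 3 scalings. These scalings shift all peaks alike, by 0.09, −0.33 and 0.10. The genes' gene-end median could therefore only stay 0.07 below that of all gene-end peaks. With the loess correction, which can change this gap, it was 0.03 below. Ratios fell with signal, from a median of 0.20 in decile 1 of all tested peaks to −0.18 in decile 10. Median signal was 347 normalized reads for the genes' gene-end peaks and 227 for all gene-end peaks. With 250 bases before the start alone, 10 promoters (25%) held a CHR and 6 (15%) E2F letters, against 9.36% and 5.57% of the 12029.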
